A study of Mus musculus with 4 samples.

Results

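*Mapk8*, *Mettl3*, *Ghitm*, *Lgals3*, *Peli2*, *Cgrrf1* and *4933406F09Rik* are 7 genes of mouse chromosome 14 whose testis signals differed between mice of the same genotype. Their probe sets were taken from the platform annotation, which had to give exactly 1 gene symbol, and that symbol had to be one of the 7. This gave 19 probe sets out of 34945 with a single symbol, and 7 of 18193 genes. The genes themselves were chosen on measured values of these arrays, the signals of the mice numbered rep1 against those numbered rep2, so every rep1 to rep2 difference given here for them is a description and carries no test.

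RNA of whole testis was hybridised to 4 one-colour Affymetrix arrays, from 2 WT mice and 2 *Ccnyl1*-/- mice. The mice were 2 months old and are labelled C57BL/6. The study's methods describe a mixed 129 and C57BL/6J background, crossed back to C57BL/6J, directly after naming the source of mice lacking the related gene *Ccny*. Whether this covers the *Ccnyl1* line is not said there. The knockout mice, from heterozygous matings, carried a knockout-first allele with a LacZ cassette. *Ccnyl1* encodes a cyclin of the cyclin Y family. Within a genotype the mice are labelled as biological replicates and numbered rep1 and rep2, and no label ties a WT mouse to a knockout mouse of the same number, so the p-values measure the spread between 2 mice per genotype.

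The label of the knockout was borne out by its own gene. *Ccnyl1* had signals of 2256 and 2425 in WT mice and of 921 and 969 in the *Ccnyl1*-/- mice, 40.4% of the WT mean, a log2 difference of -1.29 with an adjusted p of 0.00463 by limma. Among the 32438 tested probe sets it was one of 4 called between the genotypes, all lower in *Ccnyl1*-/- testes, which is 0.0123% of those tested. Pairwise correlations of the arrays lay between 0.977 and 0.980, and the summed signals of 8 genes of elongating spermatids, such as the protamines, ran from 226730 to 236060, so that testis germ cells were read on every array.

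The 7 genes are of several kinds. MAPK8, or JNK1, is the kinase at the end of a stress cascade that phosphorylates JUN, while PELI2 is a Pellino ubiquitin ligase that acts with IRAK kinases below the interleukin-1 and Toll-like receptors. METTL3 is the catalytic subunit of the complex that writes N6-methyladenosine (m6A) into RNA, a mark that germ cells need for meiosis and for timing translation. GHITM lies in the inner mitochondrial membrane and belongs to the TMBIM family, LGALS3 (galectin-3) binds beta-galactosides and is abundant in macrophages, and CGRRF1 is a RING-finger ubiquitin ligase of the endoplasmic reticulum. *4933406F09Rik* is a RIKEN cDNA gene. In a whole tissue, fewer cells of a type and less RNA per cell cannot be told apart.

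The promoters of 4 of the genes are shown because these genes moved in opposite directions between the replicate numbers on the same chromosome: *Mettl3* and *4933406F09Rik* were higher in both rep1 mice, *Ghitm* and *Lgals3* in both rep2 mice. Each runs from 250 bases before to 50 bases after the start in the RefSeq annotation of GRCm38.p6, which had an entry for all 7 genes, and is the reference sequence, since the DNA of these mice was not read. Capitals mark a GC box, with the letters GGGCGG, and a CCAAT box. They also mark a TATA box, spelled TATAAA, and the core of a cAMP response element, spelled TGACG. The last motif is the E-box CACGTG. Both strands were searched, so that reverse complements stand in capitals too. Matches of one motif may overlap each other. The *Mettl3* window is chr14:52305075-52305374 on the minus strand, that of *4933406F09Rik* chr14:7412223-7412522 on the plus strand, that of *Ghitm* chr14:37135273-37135572 on the minus strand, the first of 3 overlapping entries, and that of *Lgals3* chr14:47373610-47373909 on the plus strand.
Mettl3: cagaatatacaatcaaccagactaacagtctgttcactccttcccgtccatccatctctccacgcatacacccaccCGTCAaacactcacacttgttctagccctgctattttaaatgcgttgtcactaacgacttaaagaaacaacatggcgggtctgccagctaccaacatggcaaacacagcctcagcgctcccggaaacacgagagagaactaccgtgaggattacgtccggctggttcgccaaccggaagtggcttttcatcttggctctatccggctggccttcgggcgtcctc
4933406F09Rik: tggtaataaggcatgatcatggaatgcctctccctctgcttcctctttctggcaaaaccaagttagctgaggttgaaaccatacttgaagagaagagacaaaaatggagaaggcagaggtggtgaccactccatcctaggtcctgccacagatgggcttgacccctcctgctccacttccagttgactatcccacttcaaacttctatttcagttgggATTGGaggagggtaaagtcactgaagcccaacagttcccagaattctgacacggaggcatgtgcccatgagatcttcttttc
Ghitm: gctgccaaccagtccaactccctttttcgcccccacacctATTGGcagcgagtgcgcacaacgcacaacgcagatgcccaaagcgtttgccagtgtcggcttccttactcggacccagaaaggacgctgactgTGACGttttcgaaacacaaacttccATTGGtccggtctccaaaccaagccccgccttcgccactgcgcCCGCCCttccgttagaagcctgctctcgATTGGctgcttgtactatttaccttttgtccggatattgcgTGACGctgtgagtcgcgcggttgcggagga
Lgals3: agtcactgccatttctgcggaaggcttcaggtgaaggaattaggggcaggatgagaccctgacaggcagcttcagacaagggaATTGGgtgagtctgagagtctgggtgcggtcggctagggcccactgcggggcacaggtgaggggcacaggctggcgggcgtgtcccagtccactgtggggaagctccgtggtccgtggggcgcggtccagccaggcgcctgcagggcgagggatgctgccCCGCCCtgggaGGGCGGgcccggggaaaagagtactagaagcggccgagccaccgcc

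In the first entry of each gene a GC box was found in 5 of the 7 promoters, a CCAAT box in 4, the response element core in 3, and neither a TATA box nor an E-box in any. Over all 32851 promoters of the annotation a GC box occurred in 35.7%, a CCAAT box in 37.4%, the response element core in 20.8%, a TATA box in 13.6% and an E-box in 7.15%. *Mettl3* and *4933406F09Rik*, both higher in rep1 mice, shared none of the motifs: the *Mettl3* window held 1 response element core and the *4933406F09Rik* window 1 CCAAT box. The *4933406F09Rik* promoter had a single CG dinucleotide, against a median of 7 over all promoters, while those of *Mapk8* and *Peli2* had 45 and 38. A match is a description of the letters and no evidence of a bound factor.

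Between the genotypes none of the 19 probe sets was called. All 19 passed the minimum mean signal of 32, so all were tested. Their *Ccnyl1*-/- minus WT differences in log2(signal + 16) ran from -1.09 to 0.22 with a median of 0.02, equal to the median of 0.02 over all tested probe sets. The lowest adjusted p was 0.855 by limma, and none of the 19 had an unadjusted p under 0.05, against 1964 of all tested probe sets. With the replicate number as a block the lowest adjusted p was 0.549. The median size of the difference, sign left out, was 0.089 over the 19 probe sets and 0.137 over all tested. WT and *Ccnyl1*-/- arrays did not overlap on 1 of the 19, and on 35.9% of all tested probe sets. The genes were chosen for varying apart from genotype, which bears on all of these values. A wide difference between mice of 1 genotype widens the spread that the test uses, and where the replicate numbers do not overlap the genotypes must overlap, so nothing is read from the counts or from the median size.

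Between the replicate numbers the picture was the opposite. On 17 of the 19 probe sets both rep1 arrays lay on one side of both rep2 arrays, 8 with rep1 higher and 9 with rep2 higher, where 33.4% of all tested probe sets showed no overlap. A probe set was counted as splitting where rep1 and rep2 differed by at least 1.5-fold, or 0.585 in log2(signal + 16), in the same direction in both genotypes. By this measure 7 of the 19 split, 4 higher in rep1 and 3 higher in rep2, in every one of the 7 genes but *Ghitm*, and 1.97% of all tested probe sets did. Since the genes were chosen on this comparison, nothing is read from these counts.

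**Figure D1:**
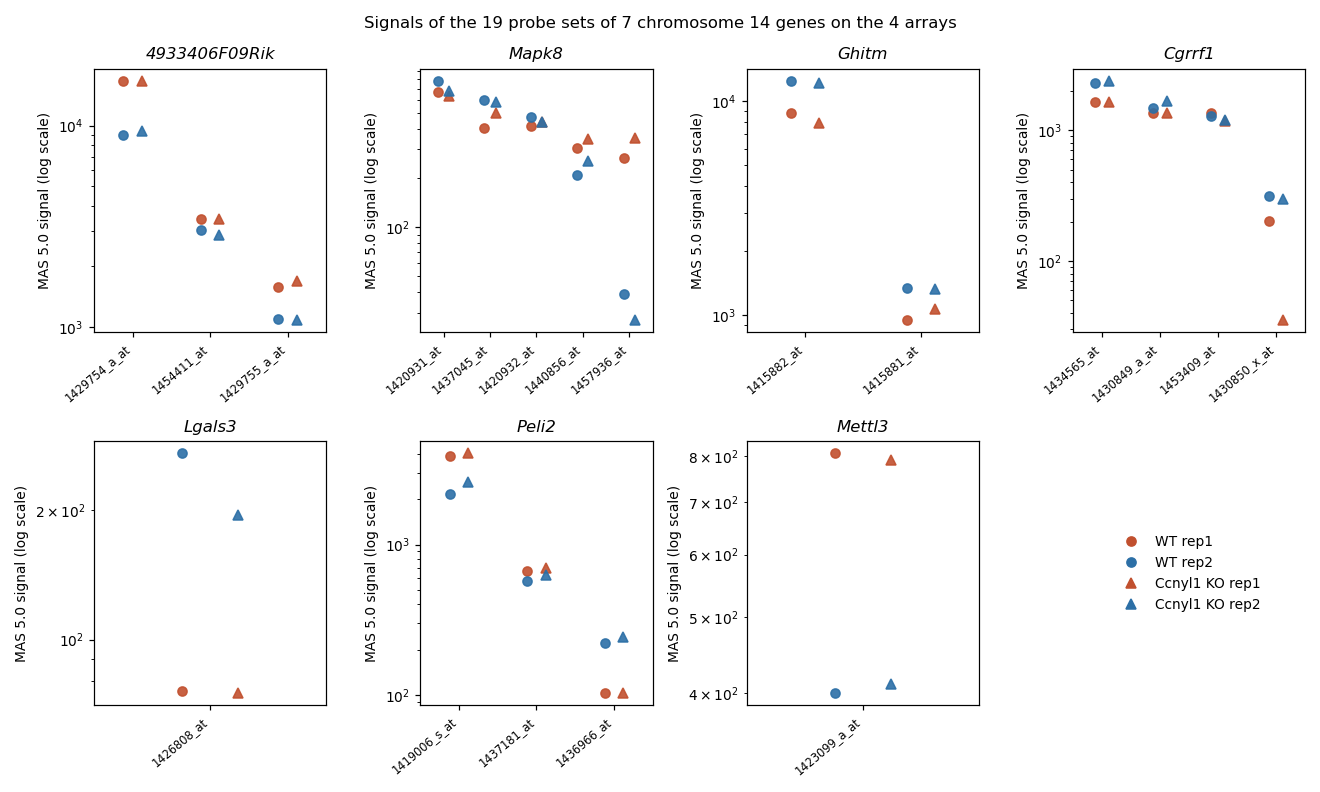
MAS 5.0 signal on a log axis (y) of each of the 19 probe sets (x) of the 7 genes, 1 panel per gene, in 2 WT mice (circles) and 2 *Ccnyl1*-/- mice (triangles), rep1 in orange and rep2 in blue. The colours do not overlap on 17 of the 19 probe sets. For *Mettl3* circle and triangle of 1 colour lie together, at 806 and 792 in rep1 and 400 and 412 in rep2, whereas for *Cgrrf1* 1430850_x_at the rep1 symbols lie far apart, at 203 and 35.3.

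The names of probe sets carry the maker's suffixes. A set ending in _a_at was designed to match several transcripts of 1 gene, one ending in _s_at matches transcripts that may come from different genes, and in one ending in _x_at some probes also match other sequences. The signals of such sets may include other transcripts, which holds here for *Cgrrf1* 1430850_x_at and *Peli2* 1419006_s_at.

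*Mapk8*, the JNK1 kinase, had the widest difference of the 7 genes, on only one of its 5 probe sets. The set 1457936_at had signals of 263 in WT rep1 and 38.8 in WT rep2, and of 350 in *Ccnyl1*-/- rep1 and 26.9 in *Ccnyl1*-/- rep2, a ratio of rep1 to rep2 of 6.78 in WT and 13.0 in the *Ccnyl1*-/- mice. In log2(signal + 16) the differences were 2.35 and 3.09, and their mean of 2.72 ranked 5th among the 16641 tested probe sets that moved the same way in both genotypes. Both low values were near the minimum of 32 that a mean had to reach, so the ratio rests on 2 dim arrays. The genotype difference of this set was 0.02, with a 95% interval from -2.21 to 2.25.

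The brighter sets of *Mapk8* followed only in part. The brightest, 1420931_at, read 672 and 788 in WT and 636 and 677 in the *Ccnyl1*-/- mice, in the order rep1 and rep2, so that rep2 was slightly the higher in both. The set 1437045_at read 406 and 601 in WT and 497 and 583 in the *Ccnyl1*-/- mice, also higher in rep2, by 0.55 and 0.22. The set 1420932_at read 418 and 470 in WT and 440 and 439 in the *Ccnyl1*-/- mice. On this last set the rep1 and rep2 arrays overlapped. The set 1440856_at turned the other way, with 304 and 210 in WT and 346 and 252 in the *Ccnyl1*-/- mice, a rep1 excess of 0.50 and 0.43. Probe sets of 1 gene thus disagreed in direction, with 2 higher in rep1, 2 higher in rep2 and 1 that overlapped. Genotype differences of the 4 sets lay between -0.15 and 0.22, with adjusted p-values from 0.889 to 0.998 by limma.

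*Peli2*, the Pellino ligase, also had probe sets that moved in opposite directions. The bright set 1419006_s_at read 3873 in WT rep1 and 2166 in WT rep2, and 4041 and 2607 in the *Ccnyl1*-/- mice, higher in rep1 by 0.83 and 0.63. The dim set 1436966_at read 102 and 221 in WT and 103 and 242 in the *Ccnyl1*-/- mice, higher in rep2 by 1.0 and 1.12. Both of these split, one in each direction, and in both the mouse of the other genotype with the same number was the nearest. The third set, 1437181_at, read 668 and 575 in WT and 693 and 631 in the *Ccnyl1*-/- mice, higher in rep1 by 0.21 and 0.13. The genotype differences of the 3 sets were 0.16, 0.06 and 0.09 in that order, with adjusted p-values of 0.946, 0.991 and 0.934 by limma.

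*Mettl3*, the m6A methyltransferase, was measured by 1 probe set, 1423099_a_at, with signals of 806 and 400 in WT rep1 and rep2 and of 792 and 412 in *Ccnyl1*-/- rep1 and rep2. Rep1 was 2.01 times rep2 in WT and 1.92 times in the *Ccnyl1*-/- mice, so the 4 arrays formed 2 tight pairs that crossed the genotypes. The log2 differences of 0.98 and 0.92 gave a mean of 0.95. The genotype difference was 0.01 with an SE of 0.35, and the 95% interval from -0.79 to 0.80 was set by the distance between the mice of a genotype.

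*4933406F09Rik* was the brightest of the 7 genes and was higher in rep1 on all of its 3 probe sets. The set 1429754_a_at read 16741 and 9028 in WT and 16729 and 9350 in the *Ccnyl1*-/- mice, a rep1 excess of 0.89 and 0.84. The set 1429755_a_at read 1574 and 1101 in WT and 1695 and 1079 in the *Ccnyl1*-/- mice, an excess of 0.51 and 0.64. The set 1454411_at read 3418 and 3022 in WT and 3428 and 2861 in the *Ccnyl1*-/- mice, an excess of 0.18 and 0.26. In each set the rep1 arrays lay above the rep2 arrays, and the first alone reached 1.5-fold in both genotypes. The second fell just short, through its 0.51 in WT, while *Peli2* 1419006_s_at, with 0.63 in the *Ccnyl1*-/- mice, lay just past that limit. Genotype differences were 0.02, 0.04 and -0.04, with adjusted p-values of 0.998, 0.990 and 0.971 by limma.

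*Ghitm*, the mitochondrial TMBIM protein, was higher in rep2 on both probe sets and reached 1.5-fold in both genotypes on neither. The set 1415882_at read 8810 and 12473 in WT and 7904 and 12090 in the *Ccnyl1*-/- mice, and rep2 was 1.42 times rep1 in WT and 1.53 times in the *Ccnyl1*-/- mice. The set 1415881_at read 945 and 1336 in WT and 1065 and 1324 in the *Ccnyl1*-/- mice, higher in rep2 by 0.49 and 0.31. No rep1 array reached a rep2 array on either set. The genotype differences were -0.10 and 0.08, with adjusted p-values of 0.957 and 0.962 by limma.

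*Lgals3*, galectin-3, was dim and was measured by a single probe set, 1426808_at. Its signals were 75.9 in WT rep1, 271 in WT rep2, 75.1 in *Ccnyl1*-/- rep1 and 195 in *Ccnyl1*-/- rep2. Both rep1 mice had nearly the same signal and both rep2 mice were well above it, by 1.64 and 1.21 in log2(signal + 16), a mean that ranked 74th. The genotype difference of -0.23 had a 95% interval from -1.46 to 1.0. Macrophages are a known source of *Lgals3*. Of 15 macrophage markers 9 were higher in rep1 in both genotypes and none was higher in rep2 in both, and their summed signal was 6047 and 4888 in WT and 4859 and 4294 in the *Ccnyl1*-/- mice, in the order rep1 and rep2. Of all 32438 tested probe sets 16641 moved the same way in both genotypes, in one direction or the other. The part of the macrophage markers in the *Lgals3* difference was not tested. For *Lyz2*, lysozyme, the values were 1227 and 565 in WT and 603 and 494 in the *Ccnyl1*-/- mice.

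*Cgrrf1*, the ubiquitin ligase of the endoplasmic reticulum, was higher in rep2 on 3 of its 4 probe sets. The brightest set, 1434565_at, read 1635 and 2300 in WT and 1655 and 2397 in the *Ccnyl1*-/- mice, a rep2 excess of 0.49 and 0.53. The set 1430849_a_at read 1343 and 1483 in WT and 1349 and 1672 in the *Ccnyl1*-/- mice, an excess of 0.14 and 0.31. The set 1453409_at read 1355 and 1285 in WT and 1184 and 1193 in the *Ccnyl1*-/- mice. On that set the replicate numbers overlapped and the genotypes did not, and its difference of -0.15 had an adjusted p of 0.855 by limma. The set 1430850_x_at read 203 and 316 in WT and 35.3 and 296 in the *Ccnyl1*-/- mice, so that 1 array, *Ccnyl1*-/- rep1, lay far below the other 3. It split, by 0.60 in WT and 2.60 in the *Ccnyl1*-/- mice, and its genotype difference of -1.09 (95% interval from -2.64 to 0.46, adjusted p of 0.855 by limma) became 0.21 without *Ccnyl1*-/- rep1.

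**Figure D2:**
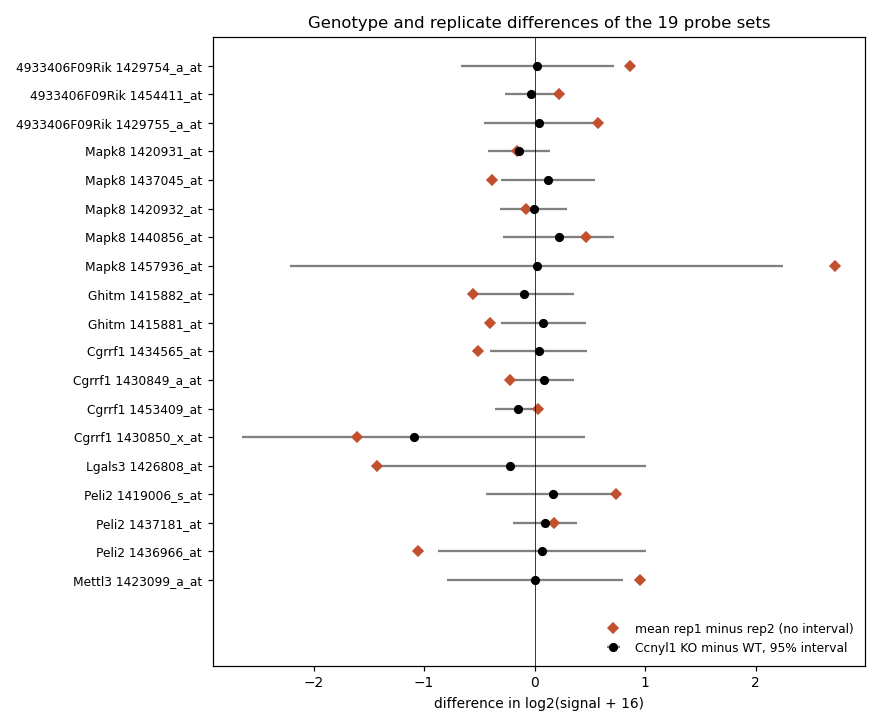
Difference in log2(signal + 16) (x) for each of the 19 probe sets (y): *Ccnyl1*-/- minus WT with its 95% interval from limma (black points and grey bars) and the mean of rep1 minus rep2 over both genotypes (orange diamonds, no interval). Every interval includes 0, and the diamonds reach 2.72 for *Mapk8* 1457936_at and -1.60 for *Cgrrf1* 1430850_x_at.

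**Figure D3:**
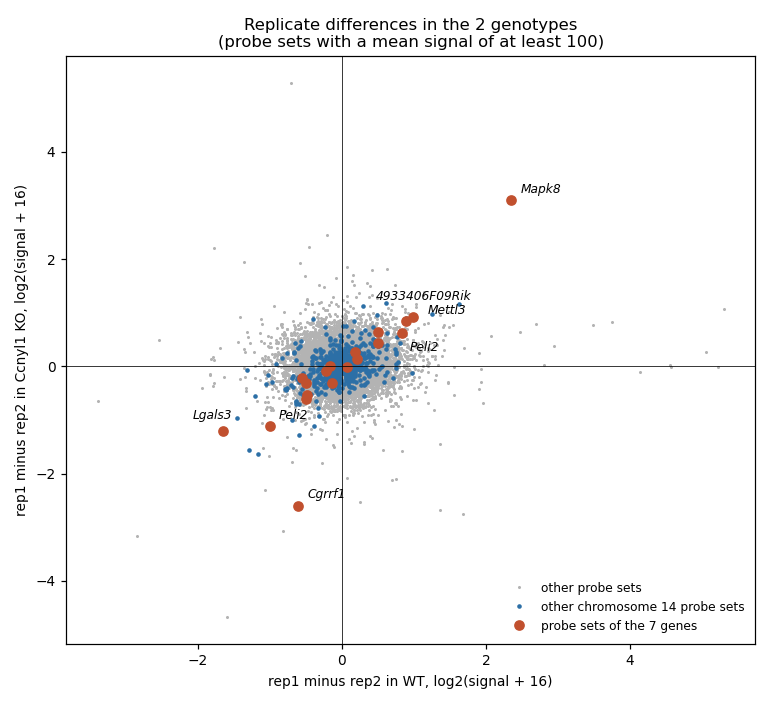
Rep1 minus rep2 in log2(signal + 16) in WT mice (x) against the same in the *Ccnyl1*-/- mice (y), 1 point per probe set whose mean signal reached 100, with the 19 probe sets of the 7 genes in orange, other probe sets of chromosome 14 in blue and all others in grey. *Mapk8* 1457936_at lies at 2.35 and 3.09 and *Lgals3* at -1.64 and -1.21, while most points crowd around 0.

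In the order of the 527 measured genes of chromosome 14 (RefSeq, GRCm38.p6), *4933406F09Rik* was 4th, *Mapk8* 143rd, *Ghitm* 163rd, *Cgrrf1* 188th, *Lgals3* 194th, *Peli2* 199th and *Mettl3* 232nd. *Cgrrf1*, *Lgals3* and *Peli2* thus lay close together, and the direction changed within this group, from higher in rep2 for *Cgrrf1* and *Lgals3* to both directions for *Peli2*. The 3 measured genes on each side of each member made 39 other genes. On the brightest probe set of each, 12 of them were higher in rep1 in both genotypes, 15 were higher in rep2 in both and 12 moved in opposite directions, with means from -1.89 to 1.39, of which 15 were within 0.2 of 0. Of all 32438 tested probe sets 16641 moved the same way in both genotypes. Chromosome 14 was taken up with its values known, so nothing is read from these counts. A probe set that split was present in 8 of the 39, and in 31 of all 527 measured genes of the chromosome, of which 6 are among the 7 described here.

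Next to *4933406F09Rik* both neighbours moved with it on their brightest probe sets. *4930521O11Rik* read 797 and 248 in WT and 573 and 248 in the *Ccnyl1*-/- mice, and *Gm10044* read 264 and 102 in WT and 219 and 104 in the *Ccnyl1*-/- mice, both higher in rep1, by means of 1.39 and 1.11. *Ktn1*, which encodes kinectin, a kinesin-binding membrane protein, lies next to *Peli2* and read 414 and 217 in WT and 450 and 234 in the *Ccnyl1*-/- mice, a mean of 0.89. This was the direction of *Peli2* 1419006_s_at, with 0.73, and the opposite of *Peli2* 1436966_at, with -1.06. Beside *Mettl3*, *Tox4* had a mean of -0.55, opposite to the 0.95 of *Mettl3*. Beside *Ghitm*, *2610528A11Rik* had -0.03 and *Nrg3*, a neuregulin, 0.20, against -0.56 for *Ghitm*. *Gmfb*, next to *Cgrrf1*, had 4 probe sets with means of -1.21, -0.47, 0.41 and 0.05, so its sets disagreed as those of *Mapk8* and *Peli2* did.

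**Figure D4:**
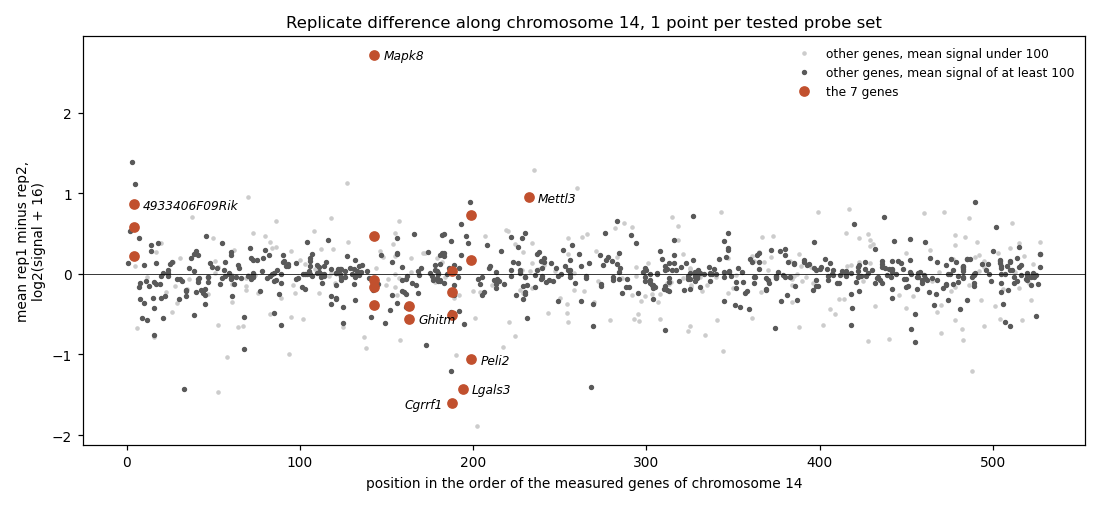
Mean of rep1 minus rep2 in log2(signal + 16) (y) of each tested probe set against the place of its gene in the order of the 527 measured genes of chromosome 14 (x), the 7 genes in orange, other genes in dark grey where the mean signal was at least 100 and in light grey below that. Points above and below 0 are mixed along the order, and *Mapk8* with 2.72 is the highest.

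Chromosome 14 held other probe sets of this kind. Without the 19, 25 of its 917 tested probe sets split, 2.73%. Of the tested probe sets with 1 gene symbol that were not placed on chromosome 14, 424 of 25945 split, 1.63%. Where the mean signal was at least 100, the shares were 14 of 644, 2.17%, and 83 of 18455, 0.45%. Chromosome 9 followed with 19 of 1055, 1.80%, and chromosome 4 had none of 1198. Between the outermost of the 7 genes, *4933406F09Rik* and *Mettl3*, the share with the 19 left out was 2.12% of 283 probe sets whose mean signal reached 100, and beyond *Mettl3* it was 1.96% of 358. These shares were not tested, and chromosome 14 was taken up with its values known.

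**Figure D5:**
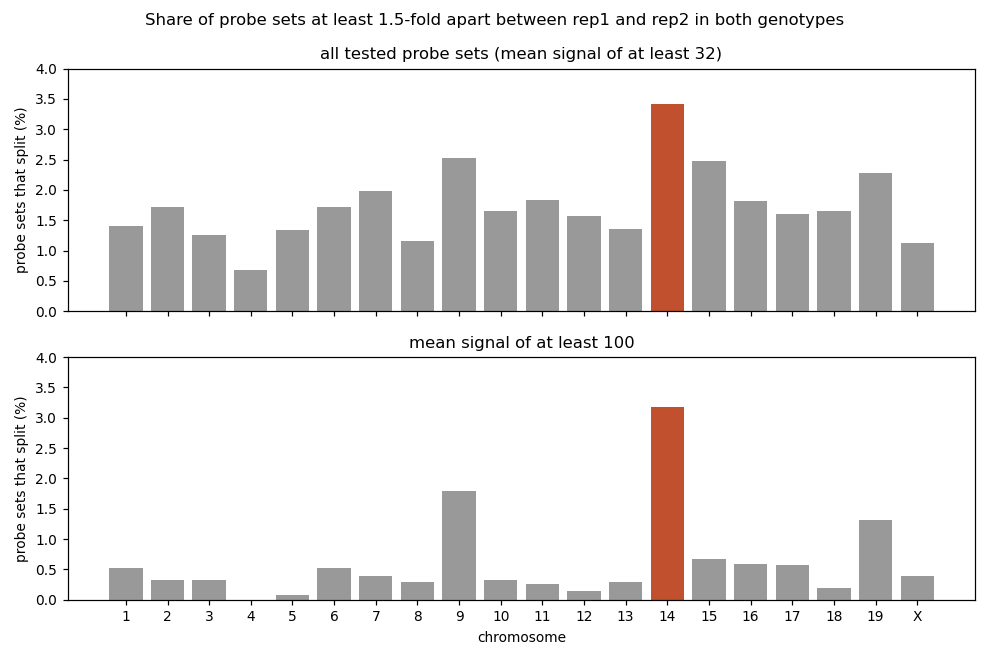
Percentage of probe sets (y, from 0) that differed at least 1.5-fold between rep1 and rep2 in the same direction in both genotypes, for each chromosome (x), over all tested probe sets (top) and over those whose mean signal reached 100 (bottom), the 7 genes included. Chromosome 14, in orange, reached 3.42% and 3.17%, and chromosome 9 reached 2.52% and 1.80%.

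Among the other genes of chromosome 14 whose mean signal reached 100, the 10 with the largest mean difference in one direction in both genotypes were *Nid2*, *Dhrs2*, *4930521O11Rik*, *Gmfb*, *Gm10044*, *Lrmda*, *Ndfip2*, *Ktn1*, *4930503E14Rik* and *Rgcc*. *Nid2*, which encodes the basement membrane protein nidogen-2, read 73.4 and 202 in WT and 88.4 and 292 in the *Ccnyl1*-/- mice, higher in rep2 by a mean of 1.42. *Dhrs2*, a short-chain dehydrogenase, read 88.8 and 218 in WT and 45.2 and 175 in the *Ccnyl1*-/- mice. *Rgcc*, a regulator of the cell cycle, read 517 and 846 in WT and 576 and 1175 in the *Ccnyl1*-/- mice. Like *Ghitm*, *Lgals3* and *Cgrrf1*, these 3 were higher in rep2, as were *Gmfb*, *Lrmda* and *4930503E14Rik*, whereas the other 4 were higher in rep1 like *Mettl3*. None of the 10 was called between the genotypes, with adjusted p-values from 0.902 to 0.988 by limma.

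The genes nearest in pattern over the 4 arrays came from chromosome 14 and from others. Likeness was the root mean square distance between centred log2(signal + 16) values, over 19099 probe sets of genes whose mean signal reached 100. Of these probe sets 644 were on chromosome 14, so nothing is read from how many near patterns lay elsewhere. For *Mettl3* the nearest were *Gm6958*, *Ktn1* and *6720468P15Rik*, at distances of 0.042, 0.061 and 0.065, on chromosomes 16, 14 and 19. For *4933406F09Rik* they were *Sult1e1*, an oestrogen sulphotransferase, at 0.047, *Ktn1* at 0.048 and *Gm6958* at 0.061. *Mettl3* and *4933406F09Rik* therefore shared 2 of their 3 nearest genes. For *Lgals3* the nearest were *4930429F24Rik*, *Dixdc1* and *1810046K07Rik*, all on chromosome 9, at 0.215 to 0.234.

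*Ghitm* had near patterns in *Mettl27*, *BC052040* and *Trim14*, at 0.015, 0.023 and 0.039. *Peli2* 1436966_at had *Usp49*, *Dixdc1* and *Glt8d2*, at 0.124, 0.125 and 0.132. *Cgrrf1* 1430850_x_at had *Polr1a*, *Dhx38* and *Cd37*, at 0.305, 0.325 and 0.361. *Mapk8* 1457936_at had no near pattern: its nearest were *4930521O11Rik*, *Cyp11a1* and *Klk1b27*, at 0.741, 0.764 and 0.769. *Cyp11a1*, the enzyme that starts steroid synthesis in Leydig cells, read 866 and 382 in WT and 1277 and 477 in the *Ccnyl1*-/- mice. *Cyp17a1*, a later enzyme of androgen synthesis, read 4117 and 2009 in WT and 6164 and 2731 in the *Ccnyl1*-/- mice, so both were higher in rep1, as were *Mettl3*, *4933406F09Rik* and *Mapk8* 1457936_at. The other Leydig markers tested were higher in rep1 in WT mice only. *Star*, the cholesterol carrier of steroid synthesis, read 507 and 336 in WT and 518 and 740 in the *Ccnyl1*-/- mice, and *Hsd3b1*, a further enzyme, read 1251 and 981 in WT and 924 and 998 in the *Ccnyl1*-/- mice. Of the 4 Leydig markers tested 2 thus split on their brightest probe set, where 218 of all 15268 tested genes did. *Cyp11a1* split on 1 of its 2 tested probe sets. The summed signal of the 4 markers, mostly that of *Cyp17a1*, was 6741 and 3708 in WT and 8883 and 4946 in the *Ccnyl1*-/- mice. Their part in the differences of the 7 genes was not tested.

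The pathway partners of the 7 genes were read on the brightest probe set of each gene. None was called between the genotypes and none split by replicate number on that set. Over all 15268 genes 3 were called and 218 split on their brightest set, so counts of 0 in lists of 8 to 23 genes are near the background, and the median genotype difference was -0.0004. In the JNK cascade 23 of 24 genes were tested, of which 11 had a positive and 12 a negative genotype difference, with a median of -0.01. *Map3k11* and *Elk1*, a kinase and a transcription factor of the cascade, had 0.46 each and *Map3k4*, another of its upstream kinases, had -0.46. Between the replicate numbers the widest means were -0.49 for the scaffold *Mapk8ip3*, -0.45 for the JUN relative *Junb* and 0.32 for the ubiquitin ligase *Itch*. The mean of *Junb* joined opposite directions, 0.24 in WT and -1.13 in the *Ccnyl1*-/- mice. *Mapk8* itself had -0.16 on its brightest set, 1420931_at, and 2.72 on its dimmest, 1457936_at.

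Among m6A genes 17 of 19 were tested, 6 with a positive and 11 with a negative genotype difference and a median of -0.02. *Wtap*, a subunit of the writer complex, had -0.27, the reader *Igf2bp1* 0.17 and *Mettl14*, the partner of METTL3, -0.15. *Mettl14* read 473 and 371 in WT and 421 and 338 in the *Ccnyl1*-/- mice, a mean rep1 excess of 0.32. This was the widest replicate difference of the m6A list and in the direction of *Mettl3*, whose own was 0.95. The readers *Ythdc2* and *Igf2bp1* followed with 0.24 and 0.23, but each changed direction between the genotypes. *Ythdc2* had 0.61 in WT and -0.13 in the *Ccnyl1*-/- mice, and *Igf2bp1* had -0.06 and 0.52.

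Among the Pellino, interleukin-1 and Toll-like receptor genes 15 of 19 were tested, 9 with a positive and 6 with a negative genotype difference and a median of 0.03. The kinase *Irak2* had 0.64, the adaptor *Tirap* 0.41 and the kinase *Irak1* 0.21, and by replicate number *Irak1*, *Irak2* and *Map3k7* had 0.47, 0.43 and 0.23. Of the TMBIM family and mitochondrial calcium genes 13 of 14 were tested, 4 positive and 9 negative, with a median of -0.02. There the sodium/calcium exchanger *Slc8b1* had a genotype difference of -0.45, the TMBIM member *Faim2* -0.44 and the protease subunit *Afg3l2* 0.32. The widest replicate means were 0.44 for *Faim2*, -0.23 for the calcium uniporter *Mcu* and 0.22 for *Slc8b1*. Those of *Faim2* (-0.31 in WT, 1.19 in the *Ccnyl1*-/- mice) and *Slc8b1* (0.86 and -0.42) joined opposite directions. None of these genes passed the test.

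Of the galectins 8 of 10 genes were tested, 4 positive and 4 negative, with a median genotype difference of -0.01. *Lgals9* had 0.63, the galectin-3 binding protein gene *Lgals3bp* 0.26 and *Lgals2* -0.21. *Lgals7* had the widest replicate mean, 1.10, from WT alone, with signals of 131 and 13.0 in WT and 47.7 and 54.0 in the *Ccnyl1*-/- mice. *Lgals9* and *Lgals3bp* had -0.39 and -0.14, the first from -0.84 in WT and 0.07 in the *Ccnyl1*-/- mice. Of the RING ligases and degradation factors of the endoplasmic reticulum 18 of 19 were tested, 6 positive and 12 negative, with a median of -0.05. *Rnf121*, *Syvn1* and *Ube2j1*, 2 ligases and a ubiquitin-conjugating enzyme, had genotype differences of -0.28, 0.20 and -0.10. The widest replicate mean of the list was -0.15 for *Wls*, a Wnt carrier, ahead of 0.10 for the ligase *Rnf170* and -0.09 for *Ube2j1*. Those of *Wls* (-0.54 in WT, 0.24 in the *Ccnyl1*-/- mice) and *Ube2j1* (-0.26 and 0.08) joined opposite directions.

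The ratio of 3' to 5' signal of *Actb*, a measure of RNA integrity, was 1.87 and 1.78 in WT and 1.83 and 1.74 in the *Ccnyl1*-/- mice, in the order rep1 and rep2. For *Gapdh* it was 0.949 and 1.01 in WT and 0.933 and 0.977 in the *Ccnyl1*-/- mice. Rep1 mice thus had the higher *Actb* ratio and the lower *Gapdh* ratio in both genotypes, and the part of RNA integrity in the differences of the 7 genes was not tested. Litter, hybridisation day and other features that the mice of 1 number may share are given by no label.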

How the data were processed

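Testis RNA was hybridised to 4 Affymetrix arrays, and the deposited values are MAS 5.0 signal intensity per probe set, on a linear scale, which the authors made with global scaling. The trimmed mean is 500 on every array, whereas the methods name another target. An array gives no read depth, and the 4 arrays limit the precision. Probe sets were named from the platform annotation. From the intensities, log2(signal + 16) was tested with limma 3.58.1 (R 4.3.3; lmFit with genotype, eBayes with trend) over 32438 probe sets with a mean signal of at least 32, after 64 control probe sets were left out. The Benjamini-Hochberg adjustment was used, with calls at an adjusted p under 0.05. The offset of 16 understates changes of dim probe sets. Log2 differences of rep1 minus rep2 were computed within each genotype.

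The 7 genes, the gene lists and the markers were chosen with earlier results of these data known. Named genes were all members, *Ccnyl1*, in each list up to 3 genes with the largest difference of each kind, 3 nearest patterns per member, the 3 genes on each side of a member and 10 other genes of chromosome 14. *Lyz2*, *Cyp17a1*, *Star* and *Hsd3b1* were picked from the marker lists after their values were seen. In the lists, 16 genes had no probe set of a single symbol in the table and were not analysed here. Gene order and promoters came from RefSeq (GRCm38.p6). Each alternative in the closing section was recomputed over all probe sets, and the test was checked on simulated data.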

Additional observations from a re-analysis of the deposited data

How the results depend on the processing

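No probe set of the 7 genes was called between the genotypes under any alternative that was read for them, and the replicate differences kept their direction under both offsets and both scalings. The alternatives with no minimum signal and with a minimum of 100 were not read for their genotype differences. Over all probe sets the 4 lower and 0 higher calls became 0 lower without the eBayes trend, 0 lower and 0 higher with the methods' t-test (before adjustment, 793 lower and 1107 higher passed 0.05), and 5 to 31 lower and 1 to 28 higher with 1 mouse left out (18 lower and 28 higher without WT rep1, 31 lower and 24 higher without WT rep2), where the lone mouse was assumed to vary like the other group. The labels give mice of 1 number nothing else in common. Deviations of rep1 mice from their genotype mean correlated between the genotypes at 0.014 over all tested probe sets, at 0.093 over those whose mean signal reached 100 and at 0.313 over those of chromosome 14, from which the 7 genes were chosen, and with the replicate block 10 were lower and 4 higher. Of the 7 member probe sets that split, 3 did so at 2-fold. With the 7 genes included, the share that split on chromosome 14 was 2.03% with an offset of 32 and 0.641% at 2-fold. The 7 genes were chosen on this comparison, so nothing is read from that share. Over all tested probe sets it was 3.39% with no offset, 1.21% with an offset of 32, 3.74% with no minimum signal, 0.613% with a minimum of 100 and 0.367% at 2-fold.

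Genotype differences changed sign under some settings. With 1 mouse left out these included differences well away from 0, such as the -1.09 of *Cgrrf1* 1430850_x_at. With no offset *Mapk8* 1457936_at had -0.0575. With arrays scaled to one median *Mapk8* 1457936_at had -0.0275, *Mettl3* 1423099_a_at -0.0466, *Cgrrf1* 1434565_at -0.0163, and *4933406F09Rik* 1429754_a_at and 1429755_a_at -0.0303 and -0.0154. With quantile normalization *Mettl3* 1423099_a_at had -0.00724 and *Peli2* 1436966_at -0.00782. With 1 mouse left out the differences ranged from -0.0927 to 0.0718 for *Mapk8* 1420932_at, -0.15 to 0.39 for 1437045_at, -0.0354 to 0.47 for 1440856_at and -1.53 to 1.57 for 1457936_at, from -0.48 to 0.50 for *Mettl3* 1423099_a_at, from -0.17 to 0.32 for *Ghitm* 1415881_at and -0.41 to 0.21 for 1415882_at, and from -1.05 to 0.59 for *Lgals3* 1426808_at. For *Peli2* they ranged from -0.25 to 0.58 for 1419006_s_at, -0.49 to 0.62 for 1436966_at and -0.0144 to 0.20 for 1437181_at, for *Cgrrf1* from -0.0643 to 0.24 for 1430849_a_at, -2.40 to 0.21 for 1430850_x_at and -0.23 to 0.30 for 1434565_at, and for *4933406F09Rik* from -0.42 to 0.47 for 1429754_a_at, -0.28 to 0.36 for 1429755_a_at and -0.17 to 0.0927 for 1454411_at. The cause was not tested.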
